A study of Drosophila melanogaster with 9 samples.

Results

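The genes described here encode the proteins of the cytosolic ribosome of Drosophila melanogaster. They were chosen by name as the genes whose symbol begins with RpL or RpS followed by a digit, or with RpLP, together with sta, the gene of the small subunit protein also called RpSA. Genes of the mitochondrial ribosome (symbols beginning with mRp) were left out, and both members of each pair of related genes were kept. This gave 93 of the 17490 genes in the deposited table. Of these, 38 belong to the 40S subunit, 47 to the 60S subunit outside the stalk, and 3 to the stalk, while 5 have names ending in -like. RNA was sequenced from blood cells of w1118 animals that carried no transgene and received no treatment, in 3 groups of 3 biological replicates, so all groups share this genotype. The AD group holds hemocytes flushed out with PBS from adult females in their first week. The PH group holds peripheral hemocytes of wandering L3 larvae, which float in the hemolymph or sit under the cuticle, released by opening the cuticle. The LG group holds larval lymph glands, the organ in which a further set of blood cells is formed, and by the methods of the study these were their anterior lobes. Each replicate was a pool of animals, and in AD the flushed cells were not sorted.

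The cytosolic ribosome translates nuclear mRNAs. Its small 40S subunit binds the mRNA and decodes it, and its large 60S subunit forms the peptide bond and carries the stalk of acidic proteins that recruits the elongation factors. Each ribosome holds 1 copy of nearly every protein, and flies that lose 1 copy of many of these genes show the Minute phenotype of slow growth and short bristles. In flies, loss of RpS6 or RpS21 is also known for overgrowth of the lymph glands.

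Values were given as RPKM, reads per kilobase of exon and library size, so that levels of different genes are compared per length. Between 2745573 and 6779942 whole reads per sample could be recovered from the values, of which between 75204 and 459247 fell on the ribosomal protein genes. Genes of rRNA and their pseudogenes took 58.5 to 73.6% of the summed RPKM, and shares are therefore given outside them. The 10 hemocyte markers were above 1 RPKM in every sample, with sums of 3711 to 4259 RPKM in the AD, 2025 to 3039 in the PH and 1918 to 2443 in the LG group. Markers of other tissues differed between the groups. The 9 muscle markers found summed to 743 to 751 RPKM in the AD, 30.3 to 58.0 in the PH and 257 to 312 in the LG group. Among them Act57B was instead highest in LG, at 108 to 124 RPKM against 18.6 to 42.8 in AD. The 5 adult fat body markers summed to 7959 to 12376 RPKM in AD and at most 41.4 in the larval samples, and the 6 larval fat body markers to 1430 to 1996 RPKM in PH, 108 to 175 in LG and at most 18.4 in AD. The adult sum came largely from Yp1, Yp2 and Yp3, at 1844 to 5232 RPKM each in AD. There apolpp was at 474 to 676 RPKM, and the gene listed as FASN1 at 0.101 to 0.166. The 6 markers of dividing cells summed to 23.7 to 37.2 RPKM in the AD, 63.3 to 88.1 in the PH and 127 to 253 in the LG group. Not every marker had this order. For stg the PH samples were lowest, at 0.509 to 2.43 RPKM. Its range was 15.5 to 17.8 RPKM for adult hemocytes and 18.4 to 66.6 for lymph glands. CycB overlapped between adult and peripheral larval samples, while PCNA, CycA, Cdk1 and polo were lower in every adult sample than in any peripheral one. In these bulk samples, fewer cells of a type and less RNA per cell cannot be told apart.

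Ribosomal protein genes took the smallest share of the transcriptome in AD and the largest in LG. Their share of the summed RPKM outside rRNA was 11.3, 12.9 and 11.7% in the AD samples, 16.1, 16.9 and 17.6% in the PH samples, and 22.6, 26.3 and 25.7% in the LG samples. No sample of one group overlapped with another group, and the means were 12.0% ± 0.866 in the AD, 16.9% ± 0.771 in the PH and 24.9% ± 1.99 in the LG group (SD, n = 3). Counted in recovered reads outside rRNA, where long genes weigh more, the shares were 4.52 to 5.27% in the AD, 7.60 to 8.64% in the PH and 10.1 to 12.1% in the LG group, again with no overlap. Left without the 20 markers of muscle and fat body, whose sum was 3.79 to 5.35% of the RPKM outside rRNA in AD and 0.171 to 0.798% in the larval samples, the share of the ribosomal protein genes was 11.9, 13.7 and 12.2% in AD, 16.2, 17.0 and 17.7% in PH, and 22.7, 26.4 and 25.7% in LG. The balance between the subunits hardly moved, since 40S genes held 41.8 to 44.0% of the RPKM of the ribosomal protein genes in all 9 samples.

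**Figure D1:**
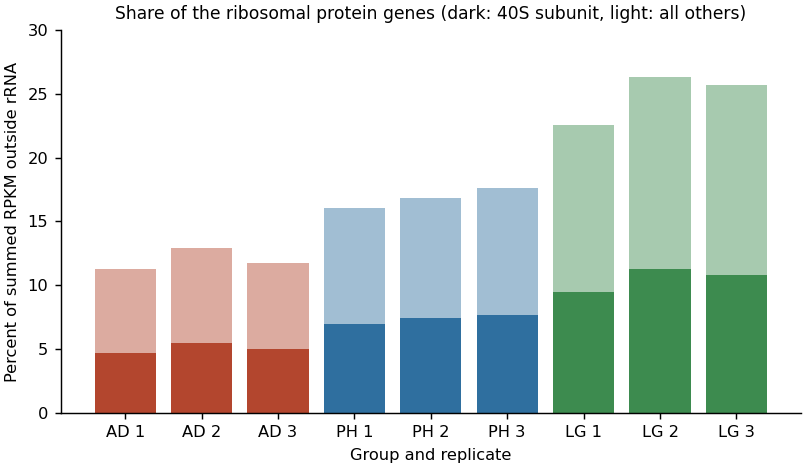
Share of the ribosomal protein genes in the summed RPKM outside rRNA, in percent, for each of the 9 samples, with 40S genes in the dark part of each bar and all others in the light part. The AD bars reach 11.3 to 12.9%, the PH bars 16.1 to 17.6% and the LG bars 22.6 to 26.3%.

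Most of these genes were among the most abundant transcripts of the cells. Of the 93 genes, 72 were above 100 RPKM in all 9 samples, and 24 in the AD, 42 in the PH and 57 in the LG group stood among the 100 genes with the highest mean RPKM outside rRNA. A further 7 genes were listed at 0 in all samples, and RpS19b reached few reads. The other 85 passed the filter of more than 1 RPKM in at least 3 of the 6 samples of every pair and were tested. Leaving out the -like genes and RpS5b, 82 genes remained, for which the median level was 288, 332 and 272 RPKM in the AD samples, 427, 428 and 480 in the PH samples and 467, 614 and 567 in the LG samples. Their levels spanned 31.1 to 1358 RPKM in the AD, 34.5 to 2422 in the PH and 43.6 to 3138 in the LG group. The 5 highest genes over the 9 samples were RpL41, RpS3, RpL15, RpS27A and RpS3A. The order of the 82 genes was alike in the 3 groups, with Spearman's rho across genes of 0.97 for AD with PH, 0.99 for AD with LG, and 0.97 for PH with LG, as a description over genes of the same libraries.

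**Figure D2:**
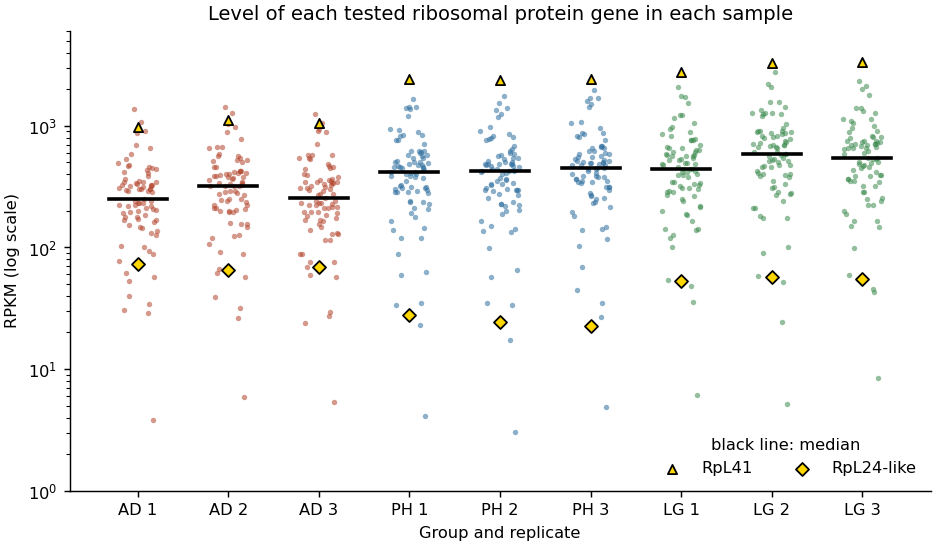
RPKM on a log axis of the 85 tested ribosomal protein genes in each of the 9 samples, with 1 point per gene, the median as a black line, RpL41 as triangles and RpL24-like as diamonds. The cloud lies lowest in the 3 AD samples, RpL41 tops it in all PH and LG samples, and RpL24-like is lowest in PH, at 22.5 to 27.7 RPKM.

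The ranking of the groups held gene by gene for most members. The 3 AD samples lay below all 6 larval samples for 73 of the 85 genes, against 16.5% of the 8065 genes above 1 RPKM in at least 3 of the 9 samples. The opposite, AD above all larval samples, held for 1 gene, RpL24-like, against 24.3% of all genes. LG lay above all 6 other samples for 45 genes, against 9.57% of all genes. For 37 genes the samples were ordered AD below PH below LG with no overlap, against 3.00% of all genes. The means had this order for 79 of the 85. The share of all genes with means in this order was not counted, so the 79 cannot be set beside the 3.00%. The differences within a group also ran through many genes at once. AD replicate 2 was the highest AD sample for 79 of the 85 genes, PH replicate 3 the highest PH sample for 74 and LG replicate 1 the lowest LG sample for 81, so the genes are not independent readings of a group.

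Between adult and larval peripheral hemocytes, the comparison asks how blood cells of the adult differ from peripheral cells of the larva. In AD, 57 of the 85 genes were lower than in PH at an adjusted p below 0.01 with no limit on the fold change (limma on log2(RPKM + 1), p-values adjusted over all 7692 genes tested), against 19.3% of all genes. Few differed by over 2-fold. With a log2 fold change beyond 1 as well, 2 genes were lower in AD, RpL28 and RpL41, against 13.9% of all genes, and 1 was higher, RpL24-like, against 23.0% of all genes. The median log2 fold change of AD over PH was -0.60 for the 85 genes and 0.05 for all genes tested. It was -0.67 for the 35 tested 40S genes, of which 26 were lower at this p, -0.57 for the 45 tested 60S genes, of which 29 were lower, and -0.48 for the stalk genes, of which 2 were lower. Without AD replicate 1 or without AD replicate 3, the 57 genes became 35 and 36, and the 2 genes beyond the fold limit became 5 without AD replicate 2 and 1 without AD replicate 3. Quantile normalization moved the median of all genes by -0.24, to -0.19. It left a median of -0.40 for the ribosomal protein genes and 0 genes lower beyond the fold limit. Their median then differed from that of all genes by -0.20, against -0.65 before.

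RpL28, a protein of the 60S subunit, and RpL41, the shortest protein of the ribosome, had the largest negative differences between AD and PH. RpL41 was at 977, 1108 and 1050 RPKM in the AD samples, 2409, 2405 and 2452 in PH, and 2758, 3319 and 3339 in LG. All AD samples lay far below the larval ones, and the PH samples were close to each other. Its log2 fold change was -1.21 for AD over PH (SE 0.11, adjusted p = 2.5e-05) and -1.58 for AD over LG (SE 0.14, adjusted p = 8.8e-05). RpL28 was at 152, 199 and 139 RPKM in the AD samples, 324, 335 and 355 in PH, and 284, 400 and 349 in LG. The PH samples lay within the range of LG for this gene. Its log2 fold change was -1.06 for AD over PH (SE 0.14, adjusted p = 0.00028) and -0.01 for PH over LG (SE 0.16, adjusted p = 0.96).

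Between adult hemocytes and the lymph gland the distance was wider. In AD, 77 of the 85 genes were lower than in LG at an adjusted p below 0.01 with no fold limit (limma), against 13.1% of the 7748 genes tested, and 22 of them beyond the fold limit, against 10.4% of all genes. None was higher, against 20.0% of all genes. At an unadjusted p below 0.05 by limma 1 gene was higher, RpL24-like, and 82 were lower, with no share of all genes counted by this rule. The 22 genes were 10 of the 40S subunit and 12 of the 60S subunit. The median log2 fold change of AD over LG was -0.90 for the 85 genes and 0.07 for all genes tested, with -0.92 for 40S genes, -0.90 for 60S genes and -0.82 for the stalk. Since the median lies near the fold limit, single libraries moved the count of 22. It was 12 without AD replicate 1, 43 without AD replicate 2, 14 without AD replicate 3, 50 without LG replicate 1 and 11 without LG replicate 2, and it was 53 with values scaled to the sum outside rRNA. The count of 77 was 24 without AD replicate 1, 27 without AD replicate 3 and 30 without LG replicate 3. Quantile normalization left the median at -0.87, against -0.18 for all genes.

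The 5 largest differences beyond the fold limit were those of RpL41, RpS9, RpL31, RpL18 and RpL39. RpS9, a 40S protein that lies near the mRNA entry channel, was at 61.5, 61.4 and 69.5 RPKM in the AD samples, 87.6, 99.2 and 103 in PH, and 121, 181 and 150 in LG. The groups did not overlap, and LG replicate 2 was the highest. The log2 fold change of RpS9 was -1.20 for AD over LG (SE 0.17, adjusted p = 0.00082), and 512 of its 1018 exon bases overlap an antisense RNA gene, so that its reads are uncertain where strand was not used. RpL31, at the exit of the nascent peptide, was on average at 480 ± 44.4 RPKM in the AD, 901 ± 55.3 in the PH and 1098 ± 190 in the LG group (SD, n = 3). Its log2 fold change was -1.18 for AD over LG (adjusted p = 0.00079) and -0.91 for AD over PH (adjusted p = 0.00018), both by limma. RpL18, of the 60S subunit, had log2 fold changes of -1.17 for AD over LG (adjusted p = 0.00043) and -0.95 for AD over PH (adjusted p = 0.0005), and together with RpL41 and RpL28 it had the lowest summed log2 fold changes of AD over PH and AD over LG. RpL39, a very short 60S protein, had a log2 fold change of -1.15 for AD over LG (adjusted p = 0.0016).

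Between the larval groups the comparison sets peripheral hemocytes against the lymph gland, and the differences were smaller. In PH, 2 of the 85 genes were lower than in LG at an adjusted p below 0.01 with no fold limit (limma), RpL24-like and RpL35, against 7.22% of the 7088 genes tested. Beyond the fold limit 1 gene was lower, RpL24-like, against 6.57% of all genes, and 0 were higher, against 7.63% of all genes. At an unadjusted p below 0.05 by limma 41 genes were lower and 0 higher. The share of all genes at this unadjusted p was not counted, so the 41 cannot be set in proportion. The median log2 fold change of PH over LG was -0.33 for the 85 genes and 0.01 for all genes tested. Values were below 0 for 82 of the 85 genes, against 3480 of the 7088 genes tested. Scaling decided how many passed. With values scaled to the sum outside rRNA, 33 genes were lower with no fold limit. The median was then -0.56, against -0.18 for all genes, which this scaling had moved by -0.19. Under quantile normalization 33 were lower. Without LG replicate 1 the 2 genes became 4, and without PH replicate 1, PH replicate 2, PH replicate 3 or LG replicate 3 they became 1. Without LG replicate 2 the 1 gene beyond the fold limit became 2.

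RpL35, a 60S protein next to the peptide exit, was at 443, 525 and 379 RPKM in the AD samples, 495, 457 and 515 in PH, and 699, 898 and 807 in LG. The AD and PH samples overlapped and LG stood above both. Its log2 fold change was -0.70 for PH over LG (SE 0.15, adjusted p = 0.0095) and -0.13 for AD over PH (SE 0.14, adjusted p = 0.42). RpL27, another 60S protein, was at 289, 338 and 295 RPKM in AD, 462, 467 and 479 in PH and 570, 822 and 660 in LG, with no overlap. Among the 45 genes with LG above all other samples, RpL41, RpS9 and RpL27 had the lowest summed log2 fold changes of AD over LG and PH over LG.

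**Figure D3:**
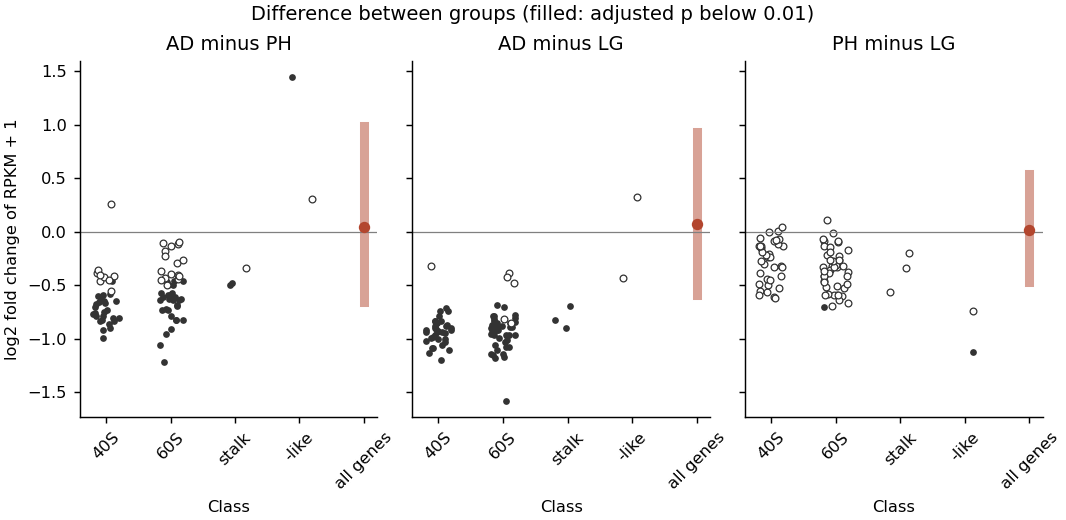
Log2 fold change of RPKM + 1 between each pair of groups for the tested genes of the 40S subunit, the 60S subunit, the stalk and the -like genes, with 1 point per gene, filled where the adjusted p was below 0.01. The red point and bar give the median and the quartiles of all genes tested. Nearly all 40S and 60S genes lie below 0 in every panel, around medians of -0.67 and -0.57 for AD over PH, while RpL24-like stands at 1.45.

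Single proteins were also compared with this common difference. When the median of the ribosomal protein genes was made equal in all samples, 6 genes differed between AD and PH at an adjusted p below 0.01 (limma). RpL41 was lower in AD relative to the other ribosomal protein genes by a log2 fold change of -0.56, and RpL35, RpL15, RpL5, RpLP0-like and RpL24-like were higher by 0.51, 0.55, 0.55, 0.93 and 2.09. Between AD and LG there were 3 such genes, RpL41 at -0.66, RpL10 at 0.54 and RpL24-like at 1.24, and between PH and LG there was 1, RpL24-like at -0.85.

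For RpL5 and RpL15 the AD and PH samples overlapped. RpL5, which carries the 5S rRNA into the ribosome, was at 345, 421 and 314 RPKM in the AD samples, 379, 361 and 408 in PH, and 499, 614 and 621 in LG. The AD samples lay below LG, with log2 fold changes of -0.10 for AD over PH (SE 0.13, adjusted p = 0.54) and -0.68 for AD over LG (SE 0.16, adjusted p = 0.0088). RpL11, the partner of RpL5 on the 5S rRNA, took another course, with a log2 fold change of -0.83 for AD over PH (SE 0.13, adjusted p = 0.00071). RpL15, deep in the 60S subunit, was at 1374, 1438 and 1263 RPKM in AD, 1410, 1355 and 1606 in PH, and 2093, 2192 and 2331 in LG, with a log2 fold change of -0.10 for AD over PH (SE 0.12, adjusted p = 0.50). Under quantile normalization this turned to 0.36 (adjusted p = 0.0030), higher in AD and past the p threshold. It had the highest level of all in AD, ahead of RpS3 and RpL41.

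RpL10, which joins the 60S subunit late in its maturation, was at 926, 1073 and 938 RPKM in the AD samples, 1390, 1257 and 1505 in PH, and 1223, 1284 and 1325 in LG. The PH and LG samples overlapped. The AD samples lay below both, with log2 fold changes of -0.50 for AD over PH (SE 0.12, adjusted p = 0.007) and -0.39 for AD over LG (SE 0.13, adjusted p = 0.039), the smallest difference between AD and LG among the 82 genes.

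**Figure D4:**
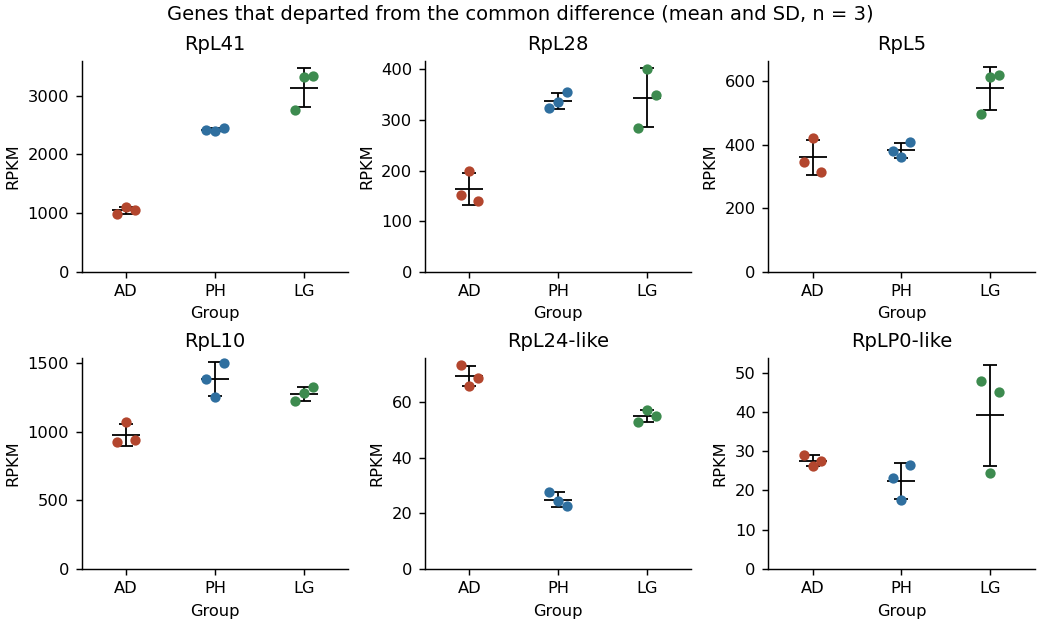
RPKM of 6 genes in the 3 samples of each group, with the mean and SD (n = 3) in black. RpL41 shows the widest step from AD (977 to 1108) to PH (2405 to 2452), RpL28, RpL5 and RpL10 show unlike steps, RpL24-like is lowest in PH (22.5 to 27.7), and RpLP0-like overlaps between all groups.

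RpL24-like belongs to the genes whose products resemble a ribosomal protein but act elsewhere. In yeast the related protein (Rlp24) sits on the maturing 60S subunit in the place that RpL24 later takes. RpL24-like was at 73.3, 65.9 and 68.8 RPKM in the AD samples, 27.7, 24.4 and 22.5 in PH, and 52.9, 57.2 and 55.1 in LG. The 3 groups did not overlap, and PH was the lowest. Its log2 fold change was 1.45 for AD over PH (SE 0.12, adjusted p = 1.8e-05), 0.33 for AD over LG (SE 0.12, adjusted p = 0.058) and -1.12 for PH over LG (SE 0.15, adjusted p = 0.0013). RpL24 itself was on average at 203 ± 16.9 RPKM in the AD, 317 ± 44.8 in the PH and 360 ± 70.5 in the LG group (SD, n = 3), with AD again the lowest. RpL24-like therefore made up 22.8 to 27.7% of the RPKM of the pair in the AD, 5.76 to 8.84% in the PH and 11.8 to 15.6% in the LG group, with no overlap. Of the 1265 exon bases of RpL24, 273 overlap a gene on the opposite strand (CG7099). The reads of RpL24, and so these shares, are uncertain where strand was not used.

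RpLP0-like, whose yeast relative (Mrt4) holds the place of the stalk base during assembly, was at 29.0, 26.2 and 27.4 RPKM in the AD samples, 23.2, 17.4 and 26.6 in PH, and 47.9, 24.4 and 45.2 in LG. All 3 groups overlapped, LG replicate 2 stood below the other LG samples, and no pair passed the test (log2 fold change 0.30 for AD over PH, adjusted p = 0.15, and -0.74 for PH over LG, adjusted p = 0.079, by limma). It rested on 70 to 387 reads per sample.

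Among the 40S proteins, RpS3 was the most abundant, a protein of the mRNA entry channel that also acts in ribosome quality control. It was at 1074, 1288 and 1058 RPKM in the AD samples, 1669, 1759 and 1964 in PH, and 1717, 2789 and 2131 in LG. AD lay below both larval groups, which overlapped. The log2 fold change of RpS3 was -0.66 for AD over PH (SE 0.13, adjusted p = 0.0023) and -0.93 for AD over LG (SE 0.20, adjusted p = 0.0061). RpS3A, at the exit of the mRNA channel, was on average at 924 ± 48.3 RPKM in the AD, 1509 ± 169 in the PH and 1650 ± 139 in the LG group (SD, n = 3), and is the only member on chromosome 4.

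RpS6, the 40S protein phosphorylated by S6 kinase, was at 249, 293 and 257 RPKM in the AD samples, 405, 413 and 453 in PH, and 377, 504 and 461 in LG. AD was below both larval groups, and PH lay within the range of LG. Its log2 fold change was -0.67 for AD over PH (SE 0.11, adjusted p = 0.00081), -0.74 for AD over LG (SE 0.15, adjusted p = 0.0046) and -0.07 for PH over LG (SE 0.16, adjusted p = 0.77). RpS21 was at 53.5, 91.9 and 76.1 RPKM in the AD samples, 119, 150 and 139 in PH, and 127, 175 and 165 in LG. It followed the same order with a wider spread in AD, and had log2 fold changes of -0.90 for AD over PH (SE 0.19, adjusted p = 0.0038) and -1.08 for AD over LG (SE 0.22, adjusted p = 0.0048). RpS21 binds next to the product of sta, which was at 220, 248 and 215 RPKM in AD, 374, 337 and 377 in PH, and 333, 398 and 417 in LG. For sta the larval groups overlapped above AD, with log2 fold changes of -0.67 for AD over PH (adjusted p = 0.00075) and -0.74 for AD over LG (adjusted p = 0.0031).

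RpS27A and RpL40 are made as fusions that release ubiquitin. RpS27A was at 877, 1031 and 911 RPKM in the AD samples, 1442, 1536 and 1698 in PH, and 1762, 2082 and 2020 in LG, with no overlap. RpL40 was at 702, 886 and 714 RPKM in AD, 1210, 1186 and 1429 in PH, and 1233, 1564 and 1399 in LG, where PH and LG overlapped. Both were lower in AD than in PH, with log2 fold changes of -0.73 for RpS27A (SE 0.12, adjusted p = 0.0009) and -0.74 for RpL40 (SE 0.14, adjusted p = 0.0017).

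The 3 stalk genes followed the other members. Their median log2 fold changes were -0.48 for AD over PH, -0.82 for AD over LG and -0.34 for PH over LG. The medians of the 85 genes were -0.60, -0.90 and -0.33. RpLP0, the base of the stalk, was at 171, 197 and 156 RPKM in the AD samples, 243, 230 and 264 in PH, and 250, 310 and 288 in LG. RpLP1 and RpLP2, which bind to RpLP0 as dimers, were on average at 359 ± 24.1 and 670 ± 108 RPKM in AD, 502 ± 20.6 and 842 ± 37.3 in PH, and 637 ± 48.5 and 1250 ± 189 in LG (SD, n = 3). RpLP2 thus had the highest level of the 3 genes in each group. All stalk genes were lower in AD than in LG at an adjusted p below 0.01 (limma), and RpLP2 missed it for AD over PH, with a log2 fold change of -0.34 (SE 0.13, adjusted p = 0.056).

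RpL32, also called rp49, is a 60S protein whose mRNA served as the reference in the quantitative PCR of the study. Its gene lies on chromosome 3R, from 30045229 to 30046161 on the minus strand in BDGP6.54. The primer pair is shown because values measured with it are relative to the gene described here, 5′ to 3′ in lower case with no part marked.
RpL32 forward: gacgcttcaagggacagtatctg
RpL32 reverse: aaacgcggttctgcatgag
By sequencing, RpL32 was at 230, 289 and 233 RPKM in the AD samples, 313, 333 and 349 in PH, and 393, 536 and 476 in LG. The groups were ordered AD below PH below LG with no overlap. The log2 fold change of RpL32 was -0.41 for AD over PH (SE 0.12, adjusted p = 0.017), -0.89 for AD over LG (SE 0.16, adjusted p = 0.0028) and -0.49 for PH over LG (SE 0.16, adjusted p = 0.047). The difference between AD and LG passed the p threshold of 0.01 and the other pairs did not.

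RpL22, whose fly protein carries an extension like that of histone H1, was the lowest of the 82 genes in PH and LG and the second lowest in AD. It was at 34.3, 31.9 and 29.7 RPKM in the AD samples, 35.0, 33.4 and 35.2 in PH, and 35.8, 51.6 and 43.4 in LG. AD and PH overlapped, and no pair passed the test, with a log2 fold change of -0.42 for AD over LG (SE 0.17, adjusted p = 0.071). Of its 1100 exon bases, 377 are shared with a noncoding RNA gene on the same strand, so its level is uncertain.

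For several proteins the fly genome holds more than 1 gene, and for RpS14, RpS15A and RpL34 the shares of the copies overlapped between the groups. RpS14a and RpS14b lie next to each other on the X chromosome, and RpS14b made up 32.7 to 36.4% of the RPKM of the pair in the AD, 32.8 to 34.9% in the PH and 32.9 to 35.3% in the LG group. RpS15Ab made up 18.2 to 21.5% of its pair in the AD, 18.7 to 19.7% in the PH and 18.0 to 19.0% in the LG group. RpL34b made up 28.4 to 43.2% of its pair in the AD, 36.0 to 39.4% in the PH and 34.7 to 39.1% in the LG group. AD was the widest of the groups in all 3 pairs. Reads that fit both copies of a near-identical pair could have been split or dropped in counting, so these shares are uncertain as levels.

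RpL34a was at 39.99, 67.1 and 59.9 RPKM in the AD samples, 59.8, 57.0 and 69.4 in PH, and 101, 90.3 and 98.4 in LG. RpL34b was at 30.4, 39.2 and 23.8 RPKM in AD, 33.6, 34.9 and 45.1 in PH, and 53.9, 58.0 and 59.4 in LG. For both, AD and PH overlapped and LG lay above them, with log2 fold changes of -0.82 for RpL34a (adjusted p = 0.011) and -0.88 for RpL34b (adjusted p = 0.0064) for AD over LG by limma. RpS15Aa and RpS15Ab were both lower in AD than in PH, with log2 fold changes of -0.79 (SE 0.10, adjusted p = 0.00025) and -0.77 (SE 0.11, adjusted p = 0.00035). RpS14a was lower in AD than in PH as well (log2 fold change -0.63, adjusted p = 0.004), and RpS14b had a value of -0.55 with an adjusted p of 0.014.

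RpS5b, known in flies for its expression in the ovary, was at 3.83, 5.91 and 5.40 RPKM in the AD samples, 4.14, 3.06 and 4.92 in PH, and 6.17, 5.21 and 8.38 in LG, and rested on 11 to 72 reads per sample. It made up 2.84 to 3.99% of the RPKM of its pair with RpS5a in the AD, 1.28 to 1.88% in the PH and 1.55 to 2.54% in the LG group. No pair passed the test for RpS5b, while RpS5a was lower in AD than in PH (log2 fold change -0.81, SE 0.11, adjusted p = 0.00033). The 10 ovary and germline markers found summed to 3.81 to 17.1 RPKM in the AD, 1.06 to 4.58 in the PH and 0.706 to 2.25 in the LG group, and the part of such cells in the level of RpS5b was not tested. RpS19b, a paralog of RpS19a known from the germline, was listed at 0 in all AD samples, in PH replicate 3 and in LG replicates 1 and 2, at 0.945 and 1.91 RPKM in PH replicates 1 and 2, and at 0.332 in LG replicate 3, from at most 7 reads in a sample.

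**Figure D5:**
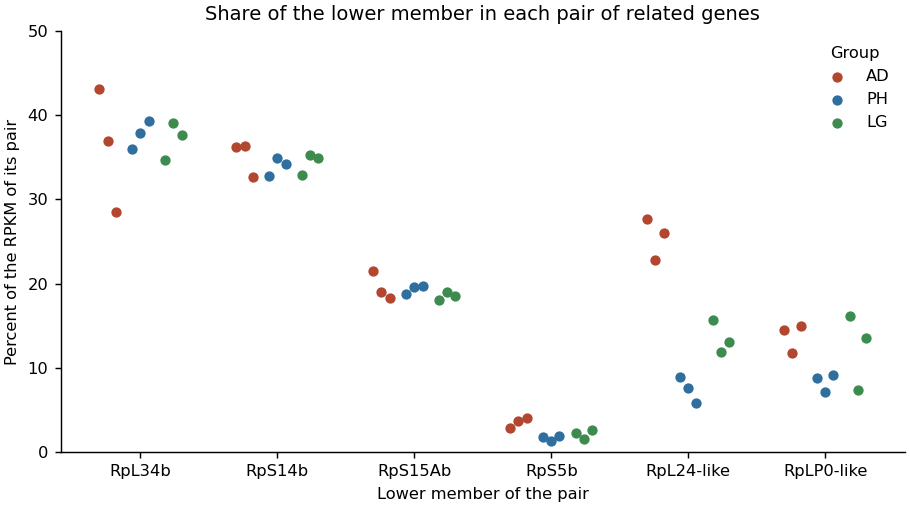
Percent of the RPKM of a pair that came from its lower member, for 6 pairs of related genes, with 1 point per sample colored by group. RpL34b, RpS14b and RpS15Ab overlap between the groups, while RpL24-like reaches 22.8 to 27.7% in AD, 11.8 to 15.6% in LG and 5.76 to 8.84% in PH.

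The 7 members listed at 0 in every sample were RpL10Aa, RpL22-like, RpL37b, RpS10a, RpS28a, RpS28-like and RpL7-like. Their partners were all detected, with RpL22 the lowest at 31.95 ± 2.32, RpL10Ab at 366 ± 38.0, RpL37a at 168 ± 25.7, RpS10b at 191 ± 10.6, RpS28b at 240 ± 30.4 and RpL7 at 320 ± 40.7 RPKM in AD (SD, n = 3). RpL22-like, a paralog of RpL22 known from the testis in flies, is 1 of them, and the 6 testis markers summed to at most 0.594 RPKM. A listed 0 is not read here as a lack of expression, and for RpL7-like 1771 of its 1793 exon bases are shared with another gene on the same strand (CG34164).

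Features that the choice by name did not use were set beside the difference between groups. Across the 82 genes, Spearman's rho of exon length with the log2 fold change was -0.21 for AD over PH, 0.32 for AD over LG and 0.47 for PH over LG, as a description over genes, so the shorter genes tended to stand higher in LG. The median log2 fold change of AD over PH was -0.63 for the 17 tested genes on chromosome arm 2L, -0.59 for 19 on 2R, -0.64 for 14 on 3L, -0.50 for 19 on 3R and -0.55 for 15 on X. Introns of many of these genes carry small nucleolar RNA genes, which guide the modification of rRNA. The 29 tested members with such genes had a median of -0.61 for AD over PH and the 56 without them one of -0.60, and for AD over LG the medians were -0.91 and -0.90.

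Other genes of translation were read from fixed lists, and counts are beyond the fold limit unless stated. Of all genes tested, 23.0% were higher and 13.9% lower in AD than in PH by this rule. The shares were 20.0 and 10.4% for AD over LG, and 7.63 and 6.57% for PH over LG. Of the 28 initiation factors, 2 were higher and 0 lower in AD than in PH, and 0 higher and 6 lower in AD than in LG. In PH 0 were higher and 2 lower than in LG, and the median log2 fold changes were -0.37, -0.64 and -0.20. With no fold limit, 11 were lower in AD than in PH and 14 in AD than in LG, against 19.3 and 13.1% of all genes. By the same rule 2 and 0 were higher. Rack1, a scaffold protein bound to the 40S subunit, was on average at 129 ± 5.18 RPKM in the AD, 254 ± 10.6 in the PH and 286 ± 46.9 in the LG group (SD, n = 3), with log2 fold changes of -0.97 for AD over PH (adjusted p = 4.7e-05) and -1.13 for AD over LG (adjusted p = 0.00056) by limma. Of the 8 elongation and release factors, 1 was higher in AD than in PH and LG (eEF1alpha2, known in flies from muscle and nerve, at 39.1 ± 12.3 against 1.03 ± 0.259 and 1.37 ± 1.94 RPKM) and 0 were lower, with medians of -0.47 and -0.60. With no fold limit, 4 of these factors were lower in AD than in PH and 2 in AD than in LG. The summed muscle markers were likewise highest in AD but higher in LG than in PH, where eEF1alpha2 had a log2 fold change of 0.07 for PH over LG (adjusted p = 0.93, limma), and their part in its level was not tested. Of the 73 genes of the mitochondrial ribosome, 71 were tested between AD and PH and 72 in the other pairs, with medians of -0.43, -0.61 and -0.04. Beyond the fold limit 0 were higher and 8 lower in AD than in PH, and 1 higher and 4 lower in AD than in LG. These were smaller shares than among all genes. With no fold limit, 10 were lower in AD than in PH and 5 in AD than in LG.

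Genes of ribosome assembly that passed the test against LG were lower in AD or PH than in LG, though not all of them in both. Of the 22 ribosome assembly genes, 21 were tested between AD and PH, of which 1 was higher in AD and 0 lower, with a median log2 fold change of 0.27. In AD 9 were lower than in LG and 0 higher, and in PH 7 were lower than in LG and 0 higher, with medians of -0.88 and -0.86. Fib, the methyltransferase of the box C/D particles, was at 10.9 ± 1.28 RPKM in the AD, 13.0 ± 2.03 in the PH and 47.2 ± 16.4 in the LG group (SD, n = 3), and had log2 fold changes of -1.96 for AD over LG (adjusted p = 0.00084) and -1.73 for PH over LG (adjusted p = 0.0031). Its LG replicate 2 was at 28.3 RPKM, against 55.9 and 57.4 in LG replicates 1 and 3. Non1, a GTPase of the maturing 60S subunit, had its lowest level in PH like RpL24-like, at 58.5 ± 3.20 RPKM against 128 ± 12.4 in AD and 158 ± 43.6 in LG. By limma its log2 fold change was -1.39 for PH over LG (adjusted p = 0.0019) and -0.27 for AD over LG (adjusted p = 0.30). The 9 genes of RNA polymerase I and its factors had a median of 0.09 for AD over PH with none beyond the limits in either direction by limma, while 1 was lower in AD than in LG and 2 in PH than in LG.

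Of the 16 regulators found, 7 were higher and 1 lower in AD than in PH, 2 higher and 2 lower in AD than in LG, and 0 higher and 5 lower in PH than in LG. The 7 and the 5 were larger shares than among all genes. For AD over LG, the 2 higher genes were a smaller share than the 20.0% of all genes, and the 2 lower genes one near the 10.4%. The 1 gene lower in AD than in PH was Dref, and the 2 lower in AD than in LG were Dref and Rack1. Dref was at 6.47 ± 1.34 RPKM in the AD, 15.3 ± 2.62 in the PH and 16.9 ± 3.58 in the LG group. Its log2 fold change was -1.13 for AD over PH (adjusted p = 0.0013, limma). Myc, a transcription factor that in flies drives ribosome production, was at 27.7 ± 3.82 RPKM in the AD, 3.42 ± 0.877 in the PH and 42.0 ± 6.18 in the LG group (SD, n = 3), with a log2 fold change of 2.71 for AD over PH (adjusted p = 1e-05). Thor, the 4E-BP that restrains cap-dependent translation, was at 311 ± 42.7 RPKM in the AD, 18.0 ± 1.30 in the PH and 39.5 ± 2.76 in the LG group, with log2 fold changes of 4.03 for AD over PH (adjusted p = 1.4e-07) and 2.94 for AD over LG (adjusted p = 6.4e-06) by limma. Xrp1, which in flies responds to a shortage of ribosomal proteins, was at 136 ± 7.16 RPKM in the AD, 29.7 ± 7.56 in the PH and 69.1 ± 23.5 in the LG group.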

How the data were processed

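RNA of 9 samples (3 AD, 3 PH, 3 LG) had been sequenced after amplification from total RNA. The authors used Trimmomatic 0.32 for trimming, HISAT2 2.1.0 for alignment and HTSeq for counting, derived RPKM with Cufflinks 2.2.1 and compared groups with DESeq2. The deposited values are these RPKM, written with decimal commas. The submitters' processing notes also list TopHat and the builds BDGP5 and dm6, and the labels name another RNA kit and sequencer than the methods of the study. Exon lengths from the Ensembl annotation of BDGP6.54 (17216 genes matched by identifier and 85 by symbol, 189 not matched) turned 97.8 to 97.9% of the values into whole reads within 0.02. The recovered reads were fewer than the mapped reads per sample stated in the paper. In AD replicate 2 and PH replicates 1 and 3 they exceeded the library total behind the RPKM. The reasons were not tested. The error of counting was not tested either, and the limits given cover these libraries only.

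Each pair of groups was fitted by limma 3.58.1 under R 4.3.3 (lmFit and trended eBayes, two-sided) on log2(RPKM + 1) over genes above 1 RPKM in at least 3 of the 6 samples, with Benjamini-Hochberg adjustment over all genes tested. Calls required an adjusted p below 0.01 together with a log2 fold change over 1 in size, and genes were counted also without the fold limit. Fold changes are on the log2(RPKM + 1) scale. The comparisons share groups. The values of 0 are as listed, since genes that every cell uses are also listed at 0. Alternatives were pseudocounts of 0.1 and 5, other filters, quantile normalization, scaling to the sum outside rRNA or to the members' median, 1 fit of all 9 samples, a replicate block and leaving out each library. Tables and plots were made with Python 3.11.15, pandas 2.3.3 and matplotlib 3.10.9.

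The members, lists and tests were chosen with earlier results of these data known. The 49 genes named by rule were all members of pairs or sets of paralogs, those called in a pair (the 5 largest where over 10), the 5 highest and 5 lowest, those with the lowest AD or highest LG levels relative to the other groups among genes without overlap there (3 each), and members with a role explained in the text. RpL35 and the genes named from the lists of other translation genes were picked after their values were seen. S6k was not analysed here.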

Additional observations from a re-analysis of the deposited data

How the results depend on the processing

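The lower level of the ribosomal protein genes in AD kept its direction, in the median and for most single genes, under pseudocounts of 0.1 and 5, other filters, quantile normalization, scaling to the sum outside rRNA, 1 fit of all samples, a replicate block and each library left out. Of all genes called, 62.3% were higher in AD than in PH, against 49.6% under quantile normalization, 65.9% were higher in AD than in LG, against 50.2%, and 53.7% were higher in PH than in LG, against 37.2% when scaled to the sum outside rRNA. For AD against PH, quantile normalization gave 0 genes lower beyond the fold limit and a median of -0.40, against -0.19 for all genes. Scaling to the sum outside rRNA gave 1 gene lower beyond the fold limit for AD against PH and 53 for AD against LG. For PH against LG this scaling gave 33 genes lower with no fold limit. The median was then -0.56, against -0.18 for all genes. Quantile normalization gave 3 genes lower beyond the fold limit and 33 without it for PH against LG, and the count without the limit was 1 with either pseudocount, without the filter and with the replicate block, and 7 in 1 fit of all samples. Same-numbered samples had correlations of -0.06 to 0.12, so the numbers were not taken as pairs, and the replicate block changed no other count by over 1.5 times. Leaving out 1 library gave 1 to 5 and 35 to 66 genes for AD against PH, 11 to 50 and 24 to 77 for AD against LG, and 1 to 2 and 1 to 4 for PH against LG, with and without the fold limit. Smaller samples leave fewer degrees of freedom. The share of the ribosomal protein genes was 4.24, 5.60 and 9.29% of all RPKM in AD, PH and LG, 10.6, 14.7 and 21.4% without the 10 shortest genes, and 15.9% in PH without RpL41. The set without muscle and fat body markers was chosen after the values were seen.

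By construction, scaling to the median of the ribosomal protein genes removed their common difference and moved the median of all genes by 0.55, 0.78 and 0.23. It gave medians of 0.048, 0.017 and -0.054, 0 genes lower beyond the fold limit in each pair, 1 lower without it in each, and 1 higher for AD against LG. Log2 fold changes that changed sign under it were, for AD against PH, 0.15 for RpL10, 0.016 for RpL10Ab, 0.55 for RpL15, 0.52 for RpL22, 0.21 for RpL23, 0.015 for RpL24, 0.036 for RpL27, 0.24 for RpL32, 0.46 for RpL34a, 0.34 for RpL34b, 0.23 for RpL37a, 0.55 for RpL5, 0.16 for RpLP0, 0.17 for RpLP1, 0.31 for RpLP2, 0.022 for RpS14a, 0.096 for RpS14b, 0.29 for RpS28b and 0.058 for RpS9. For AD against LG they were 0.54 for RpL10, 0.0069 for RpL11, 0.22 for RpL15, 0.48 for RpL22, 0.12 for RpL24, 0.029 for RpL32, 0.095 for RpL34a, 0.021 for RpL34b, 0.44 for RpL37a, 0.057 for RpL40, 0.24 for RpL5, 0.0082 for RpL7, 0.23 for RpLP0, 0.46 for RpLP0-like, 0.10 for RpLP1, 0.025 for RpLP2, 0.085 for RpS14a, 0.13 for RpS14b, 0.017 for RpS15Ab, 0.090 for RpS3A, 0.46 for RpS5b, 0.18 for RpS6 and 0.18 for sta. For PH against LG they were 0.19 for RpL11, 0.056 for RpL18, 0.10 for RpL24, 0.26 for RpL28, 0.0018 for RpL31, 0.20 for RpL37a, 0.14 for RpL40, 0.19 for RpL7, 0.074 for RpLP0, 0.035 for RpS10b, 0.063 for RpS14a, 0.034 for RpS14b, 0.061 for RpS15Aa, 0.14 for RpS15Ab, 0.14 for RpS19a, 0.087 for RpS21, 0.14 for RpS3A, 0.20 for RpS6 and 0.20 for sta. Other settings changed signs as well. Quantile normalization gave 0.36 for RpL15 (adjusted p = 0.0030), 0.18 for RpL5 and -0.0022 for RpS5b for AD against PH and -0.32 for RpL10 for PH against LG, and scaling to the sum outside rRNA gave 0.021 for RpL15, 0.0065 for RpL22 and 0.023 for RpL5, and -0.12 for RpL10. With 1 library left out, RpL34a ranged from -0.33 to 0.034 for AD against PH, and for PH against LG RpL11 ranged from -0.26 to 0.037, RpL28 from -0.15 to 0.10, RpL37a from -0.22 to 0.029, RpS19a from -0.28 to 0.026 and RpS6 from -0.19 to 0.023. The causes of these changes were not tested. Reads limit RpS5b and RpS19b most.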
